A study of Oryza sativa with 6 samples.

Results

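The genes described here encode 3 channel proteins of the plastid outer envelope, TOC75, OEP80 and OEP21. They were found as all probe sets assigned to a single gene that carries 1 of these names as symbol or synonym in the rice gene annotation. This gave 4 probe sets of 3 genes, out of 22436 probe sets with a single gene and the 17905 genes assigned to such probe sets. TOC75 (LOC4332389) and OEP80 (LOC4328615) were read by 1 probe set each and OEP21 (LOC4331258) by 2, called here by the endings of their names, _at and _s_at. LOC4328615 also carries OEP75 as a synonym in the annotation. RNA came from leaves of transgenic rice (Oryza sativa) over-expressing OsCGA1, a GATA-type transcription factor, and from leaves of wild type rice, with 3 biological replicates of each. These groups are called OX and WT below. All plants were 4 weeks old and had grown in chambers kept at 28 °C during 16 h of light and at 23 °C during an 8 h night. The promoter of the transgene, the rice cultivar and the number of transgenic lines are not given in the sources used here. The series title names chloroplast development as its subject, and the comparison asks whether leaf transcripts of these channel genes differ when OsCGA1 is overexpressed.

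Nearly all plastid proteins are made in the cytosol as precursors and cross both envelope membranes through the translocons of the outer (TOC) and inner (TIC) envelope. TOC75 is a beta-barrel protein of the Omp85 family and forms the pore through which precursors pass the outer membrane. OEP80 is its relative in the same family, known from Arabidopsis, where plants need it for viability and where it serves the assembly of beta-barrel proteins in the outer envelope. OEP21, characterized in pea, is not an import pore but an anion-selective channel for small phosphorylated metabolites such as triose phosphates.

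The arrays gave a relative signal for each probe set, in linear MAS5 units, so signals of different probe sets are not read as relative transcript levels. Where differences between probe sets within an array are given, only their shift between OX and WT is read. A gene measured in whole leaves can read lower either because fewer cells of a type are present or because each cell holds less of its RNA, and these cannot be told apart. Changes are given as OX minus WT on the log2(signal + 3) scale, which understates the changes of low signals. Errors after ± are standard errors of that change, or SDs where stated. A probe set is said to have risen or fallen where limma gave an adjusted p under 0.05, by Benjamini-Hochberg over 28456 tested probe sets. All 4 probe sets of the channel genes passed the filter on dim signals, a mean of at least 16.8 over the 6 arrays.

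Of the 4 probe sets, 2 rose in OX leaves and 0 fell: that of TOC75 and 1 of the 2 for OEP21. The OEP80 probe set and the other OEP21 probe set did not pass. Over all tested probe sets 16.1% passed in either direction, 8.65% higher and 7.44% lower in OX, so a count of 2 among 4 has to be read against many calls elsewhere. An unadjusted p under 0.05 was found for 2 of the 4, against 33.1% of all tested probe sets. In 2 of the 4 the OX arrays all lay above the WT arrays, which held for 16.7% of all tested probe sets. Groups that did not overlap in either direction made up 38.7%. The 4 changes ran from 0.05 to 0.75 with a median of 0.28, while the median over all tested probe sets was -0.09.

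**Figure D1:**
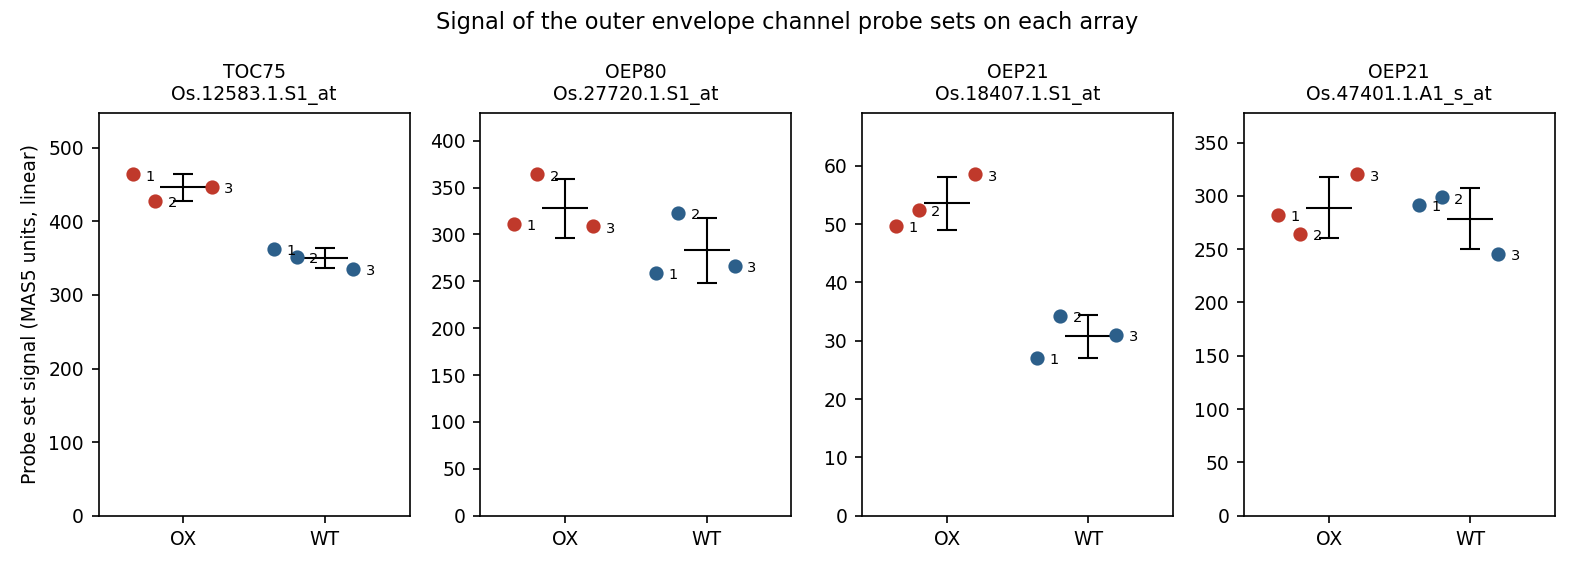
Linear MAS5 signal of each channel gene probe set on each array, with OX left of WT in every panel; numbered points are replicates, and the bars are the mean ± SD (n = 3). The OX arrays lie above the WT arrays for TOC75 and for the OEP21 _at probe set, and the groups overlap for OEP80 and for the OEP21 _s_at probe set.

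The import pore gene TOC75 had signals of 463.8, 427.5 and 447.3 on OX replicates 1, 2 and 3, against 362.5, 352.2 and 335.3 on WT replicates 1, 2 and 3. The lowest OX array thus lay above the highest WT array. Replicates were close together, with means of 446.2 ± 18.2 in OX and 350 ± 13.7 in WT (SD, n = 3 each), or coefficients of variation of 4.07% and 3.92%. TOC75 rose by 0.35 ± 0.10 on the log2 scale, a 1.27-fold change with a 95% interval from 1.09 to 1.48 and an adjusted p of 0.0456 from limma. This was a modest rise among the tested probe sets, of which 18.3% had a higher change and 15.0% a smaller p.

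The TOC75 call lay close to the threshold. It was lost without WT replicates 1, 2 or 3 (adjusted p of 0.0906, 0.113 and 0.142 from limma) and without OX replicates 1 or 3 (0.106 and 0.128), and was kept without OX replicate 2 (0.0405). The change ran from 0.32 to 0.38 over 16 alternative settings, of which 7 gave a pass. Settings of the filter, variance trend, replicate block and threshold cannot alter the change itself. The pass at an adjusted p under 0.10 uses the reported fit and could not fail.

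OEP80, the Omp85 relative of TOC75, had signals of 311, 364.1 and 308.6 on OX replicates 1, 2 and 3, against 258.9, 323.3 and 266.8 on WT replicates 1, 2 and 3. The highest WT array stood above the OX arrays 1 and 3, so the groups overlapped. Replicate 2 was the highest in each genotype. The means were 327.9 ± 31.4 in OX and 283 ± 35.1 in WT (SD, n = 3 each). The change was 0.21 ± 0.13 and did not pass (adjusted p of 0.287 from limma), with a 95% interval from -0.08 to 0.51 that includes both 0 and the TOC75 value. It passed in 0 of 16 alternative settings, in which it ran from 0.14 to 0.31.

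The 2 probe sets of the anion channel gene OEP21 gave different readings. The _at probe set was dim, with signals of 49.7, 52.4 and 58.5 on the OX arrays against 27, 34.3 and 31 on the WT arrays (replicates 1, 2 and 3 in each). Every OX array was higher than every WT array. The means were 53.5 ± 4.51 in OX and 30.8 ± 3.66 in WT (SD, n = 3 each). This probe set rose by 0.75 ± 0.19, a 1.68-fold change with a 95% interval from 1.24 to 2.26 and an adjusted p of 0.0329 from limma. Only 7.78% of the tested probe sets had a higher change, and 12.1% a smaller p.

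The OEP21 _s_at probe set read 282.1, 264.1 and 320.1 on OX replicates 1, 2 and 3, against 291.7, 298.5 and 245.7 on WT replicates 1, 2 and 3. Here the genotypes overlapped: WT replicates 1 and 2 lay above OX replicates 1 and 2. The means were 288.8 ± 28.6 in OX and 278.6 ± 28.7 in WT (SD, n = 3 each). The change was 0.05 ± 0.13, with a 95% interval from -0.24 to 0.34 and an adjusted p of 0.808 from limma. The upper end of that interval lies above the lower end for the other probe set, 0.31, so the 2 intervals overlap.

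The disagreement between both OEP21 probe sets was measured within each array. The _at minus the _s_at probe set, on the log2(signal + 3) scale, was -2.37 ± 0.09 in OX and -3.06 ± 0.22 in WT (SD, n = 3 each), a difference of 0.69. The values ran from -2.44 to -2.27 on the OX arrays and from -3.30 to -2.87 on the WT arrays, without overlap. The exact permutation test over arrays, two-sided, gave p = 0.1, the smallest that 3 arrays against 3 allow, and 0.15 after Benjamini-Hochberg adjustment over the 6 pairs of channel gene probe sets. RefSeq lists 2 transcripts for OEP21 and 1 each for TOC75 and OEP80. In Affymetrix naming, the ending _s_at marks probes shared by several transcripts, which need not belong to the same gene. Which transcripts each OEP21 probe set detects was not tested, so the gene as a whole is given no direction.

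The rise of the OEP21 _at probe set did not pass in any of the 6 settings with 1 array left out. The adjusted p from limma was 0.0866, 0.0620 and 0.0814 without WT replicates 1, 2 and 3, and 0.0611, 0.0539 and 0.119 without OX replicates 1, 2 and 3. The change ran from 0.62 to 0.84 over 15 alternative settings, of which 7 gave a pass. As for TOC75, the pass at an adjusted p under 0.10 uses the reported fit and could not fail.

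**Figure D2:**
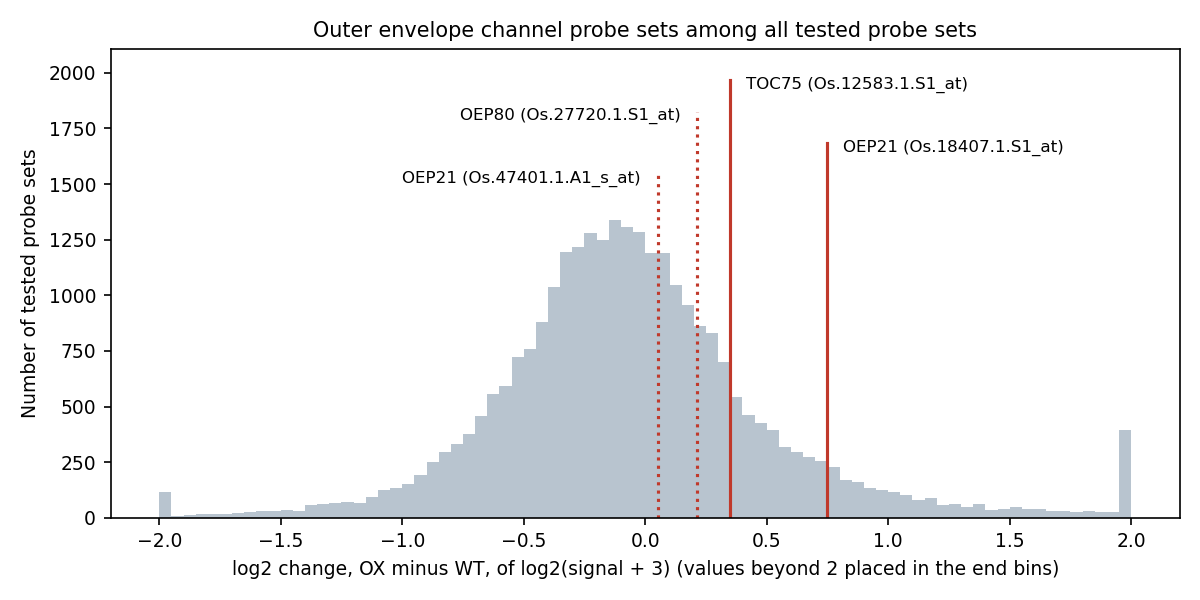
Histogram of the log2 change (OX minus WT) of all 28456 tested probe sets, with the channel gene probe sets as vertical lines, solid where the adjusted p was under 0.05 and dotted otherwise; values beyond 2 on either side are counted in the end bins. TOC75 at 0.35 and the OEP21 _at probe set at 0.75 lie right of the centre, and 18.3% and 7.78% of the probe sets lie further right.

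The changes of TOC75 and OEP80 could not be told apart. Their within-array log2 difference (TOC75 minus OEP80) was 0.44 ± 0.19 in OX and 0.31 ± 0.18 in WT (SD, n = 3 each), with overlapping groups and an exact permutation p of 0.5, two-sided. TOC75 minus the OEP21 _s_at probe set was 0.63 ± 0.13 in OX and 0.33 ± 0.11 in WT (SD, n = 3 each), with every OX array higher (exact permutation p = 0.1, adjusted 0.15). TOC75 minus the OEP21 _at probe set was 2.99 ± 0.14 in OX and 3.39 ± 0.19 in WT (SD, n = 3 each), again without overlap (exact permutation p = 0.1, adjusted 0.15).

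Other genes of plastid import and of the envelope were looked up by 68 names of translocon subunits, stromal import motors, outer envelope proteins and envelope lipid or division proteins. The gene tables used named 9 genes of this list, each with a probe set of its own. Of the 9, 8 were tested, while MGD2 lay below the filter. The other names matched no symbol or synonym, so whether the array measures those genes is not known. None of the 9 was a TOC or TIC subunit, so of the translocons TOC75 alone was analysed here. Of the 8 genes, each by its brightest tested probe set, 0 rose and 1 fell in limma, the same counts as at an unadjusted p under 0.05. Over all tested probe sets 16.1% passed, so 1 call among 8 lies near the overall share. An unadjusted p under 0.05 was found for 33.1% of all tested probe sets, a larger share than 1 among 8. The median change of the 8 genes was 0.001, against -0.09 over all tested probe sets.

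OEP24, another solute channel of the outer envelope known from pea, had signals of 544.8, 465.4 and 517.8 on the OX arrays and 441.4, 516.4 and 488.1 on the WT arrays. The genotypes overlapped, and the change of 0.08 ± 0.11 did not pass (adjusted p of 0.651 from limma). CLPC proteins are Hsp100-type chaperones of the stroma, and in Arabidopsis they act at the inner envelope in protein import. CLPC1 was at -0.08 ± 0.09 and CLPC2 at -0.19 ± 0.12, and neither passed. Both changes had the opposite sign under quantile normalization (0.09 and 0.05). CLPC3 was the gene that fell, with signals of 17, 21.5 and 24.3 on the OX arrays, against 75.9, 50.3 and 63.4 on the WT arrays. Its change was -1.46 ± 0.23 (adjusted p of 0.00627 from limma), and it passed in all 15 alternative settings that tested it.

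Among envelope lipid genes, MGD1 and MGD3, which encode synthases of the plastid lipid monogalactosyldiacylglycerol, were at 0.11 ± 0.11 and 0.35 ± 0.23 and did not pass. The MGD3 value depended on single arrays, at 0.10 without OX replicate 2 and 0.51 without WT replicate 3, neither of which passed. VIPP1, a protein of thylakoid membrane maintenance, was at 0.12 ± 0.11 and did not pass. SFR2, a galactolipid-remodelling enzyme of the outer envelope known from freezing tolerance in Arabidopsis, had 3 tested probe sets that differed. Its brightest was at -0.16 ± 0.17 and another at -0.03 ± 0.17, and neither passed. The third fell by 0.71 ± 0.14 (adjusted p of 0.0143 from limma), with signals of 81.2, 75.5 and 63.9 on the OX arrays and 121.8, 120.9 and 122.7 on the WT arrays. It was singled out after its values were seen.

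**Figure D3:**
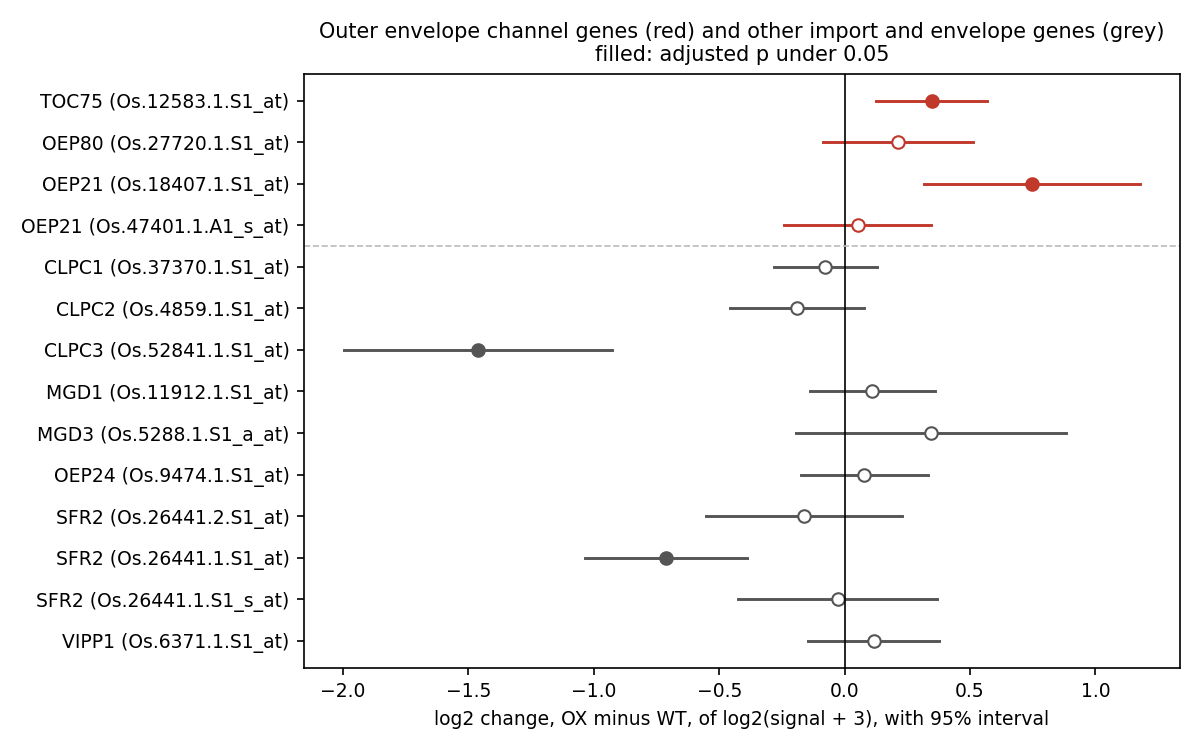
Log2 change (OX minus WT, log2(signal + 3) scale) with its 95% interval for the channel gene probe sets (red) and for all tested probe sets of the other import and envelope genes (grey), filled where the adjusted p was under 0.05. TOC75 and 1 OEP21 probe set lie to the right of 0, CLPC3 and 1 SFR2 probe set lie to the left, and the intervals of the others include 0.

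For each channel gene, the 3 named genes with the most similar signal over the 6 arrays were found by Pearson correlation of log2(signal + 3) among 2068 genes, using the brightest probe set of each. These correlations are descriptions over 6 points, which share their arrays and include the genotype difference. For TOC75 they were RPL39C (r = 0.999) and CYC07 (r = 0.994), which encode cytosolic ribosomal proteins, and the Ran GTPase gene OsRan1 (LOC4325312, r = 0.993). All 3 rose more than TOC75 did, by 0.84 ± 0.11, 0.77 ± 0.10 and 0.77 ± 0.13. RPL39C had 2174, 1803 and 2040 signal units on OX replicates 1, 2 and 3, against 1190, 1137 and 1025 on WT replicates 1, 2 and 3, the same order of arrays as for TOC75.

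For OEP80 the most similar genes were the glutaredoxin gene GRXS12 (r = 0.975), the phenylalanine ammonia-lyase gene PAL06 (r = 0.966) and PDHE1-B (LOC4347531, r = 0.959), a pyruvate dehydrogenase subunit gene. None of them passed. GRXS12 had its highest signal within each genotype on replicate 2, at 1944 in OX and 1473 in WT, as OEP80 did. For the OEP21 _s_at probe set they were the inositol phosphate kinase gene ITPK4 (r = 0.970), OsC3H60 (r = 0.948) and CAMK1 (r = 0.933), with changes between 0.01 and 0.11 that did not pass.

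Several other measures differed between the genotypes in these samples. The ratio of 3' to 5' signal of actin control probe sets, which tracks RNA quality, lay above the WT arrays on all OX arrays in 2 of the 3 actin pairs above the filter. In 1 of these it was 7.29, 3.75 and 3.25 on OX replicates 1, 2 and 3, against 2.38, 3.11 and 3.02 on WT replicates 1, 2 and 3 (exact permutation p = 0.1, two-sided, the smallest possible, and 0.2 adjusted over 4 control pairs). The third actin pair overlapped, and the GAPDH pair had a mean ratio of 4.02 in OX and 4.74 in WT (exact permutation p = 0.2). OX replicate 1 had the highest ratio in every actin pair. In the GAPDH pair it was at 4.65, between the lowest and highest WT values of 4.25 and 5.18. That array had the highest TOC75 signal, but the lowest OEP21 _at signal of the OX arrays. Without it the change was 0.32 for TOC75 and 0.80 for the OEP21 _at probe set, and neither passed (adjusted p of 0.106 and 0.0611 from limma). The summed signal of 8 leaf mesophyll marker genes was 39524 to 45555 on the OX arrays and 49380 to 57108 on the WT arrays. In limma 0 of the 8 passed, and 7 were lower at an unadjusted p under 0.05. Of all tested probe sets, 33.1% had such a p in either direction. Each of these markers averaged at least 1135 signal units over the 6 arrays. The sum of 7 root markers was 293.2 to 333.2 in OX and 698.9 to 732.7 in WT. Of 6 tested root genes 3 were lower, against 7.44% of all tested probe sets. Lsi1 averaged 159.2 in OX and 415.9 in WT and makes up most of the difference in the sum. The other root genes that passed were YSL15, at 25.4 in OX and 79.9 in WT on average, and IRT1, at 56.9 in OX and 100.6 in WT. IRT2 averaged 26.5 in OX and 70.6 in WT and did not pass (adjusted p of 0.0588 from limma). HKT1;5 averaged 28.8 in OX and 28.5 in WT, and NRAMP5 20.3 in OX and 22.5 in WT. The sum of 5 genes of dividing cells was 804.2 to 926.9 in OX and 487.7 to 537.5 in WT. Of 3 tested genes 1 was higher, against 8.65% of all tested probe sets. At an unadjusted p under 0.05 from limma, 2 of the 3 were higher. The gene that passed, H2B.10, averaged 705.6 in OX and 368.6 in WT and makes up most of the difference in the sum. CDKB2-1 averaged 27.2 in OX and 9 in WT and did not pass (adjusted p of 0.0581 from limma), while PCNA averaged 131.9 in OX and 131.3 in WT. No marker was at 0 on any array, but only 0.002% to 0.01% of all non-control values on an array were 0. The dimmest root marker, Lsi2, averaged 0.97 over the 6 arrays and the dimmest gene of dividing cells 3.5, both below the filter. The part of RNA quality and of tissue make-up in the changes of the channel genes was not tested. OsCGA1 is not named in the gene tables used, so its own signal was not analysed here.

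**Figure D4:**
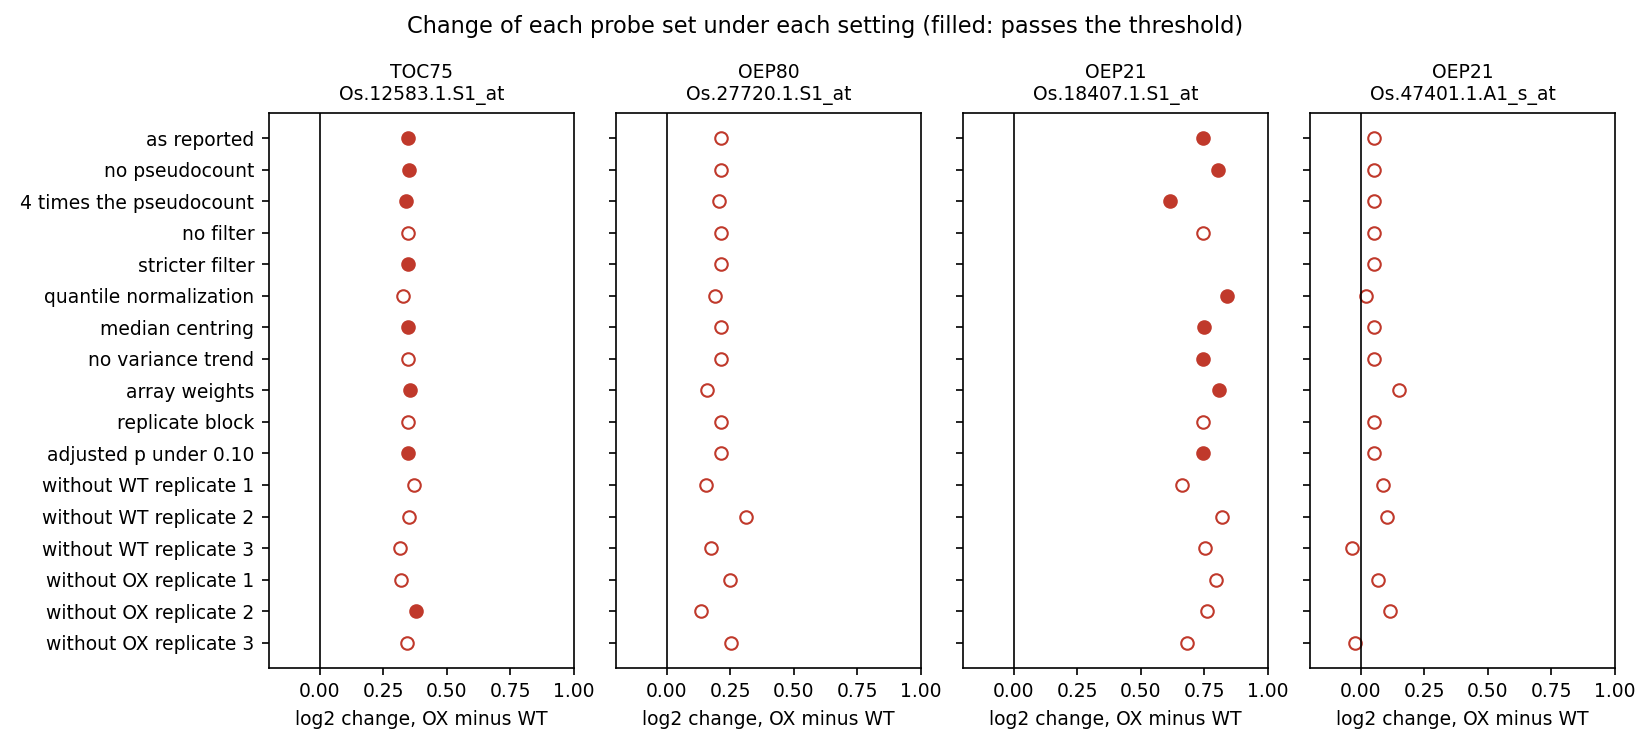
Log2 change (OX minus WT) of each channel gene probe set as reported and under each alternative setting, filled where it passed that setting's threshold; the stricter filter leaves out the OEP21 _at probe set. TOC75 runs from 0.32 to 0.38 and the OEP21 _at probe set from 0.62 to 0.84, with filled and open points in both. OEP80 and the OEP21 _s_at probe set have open points throughout. Settings of the filter, variance trend, replicate block and threshold cannot alter a change.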

How the data were processed

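Signals were measured on 6 Affymetrix Rice Genome Arrays, 3 OX and 3 WT. The deposited intensities are linear MAS5 signals according to the submitters' processing notes, and the authors' MAS5 version, scaling target and detection calls are not given in the sources used here. The mean of every array after trimming 2% at each end was 100.0, so no further scaling was applied. Array medians were 14.7 to 16.2 in OX and 16.8 to 18.7 in WT, and the number of arrays limits the precision. Of 57381 probe sets, 187 controls were left out. Names came from the platform annotation and the RefSeq gene table (ASM3414082v1), used for names alone. Signals were analysed as log2(signal + 3) for probe sets with a mean of at least 16.8, the median of all values, with limma 3.58.1 in R 4.3.3 (genotype alone, eBayes with a variance trend, two-sided). The fit was tested on simulated data. Named genes were all channel gene probe sets, the import and envelope genes that passed and otherwise those of smallest p, with all 8 printed, and the 3 most similar genes of each channel gene. The members and lists were chosen with earlier results of these data known. The labels call the replicates biological. Deviations of same-numbered OX and WT replicates correlated at 0.10, -0.01 and -0.06, so the numbers were not used as pairs. Alternatives covered the pseudocount, filter, scaling, variance model, threshold, replicate block and each array left out.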

Additional observations from a re-analysis of the deposited data

How the results depend on the processing

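TOC75 lost its call with no filter (adjusted p of 0.0653 from limma), with no variance trend (0.0935) and with the replicate block (0.0952). These settings cannot alter its change of 0.35. It also lost the call under quantile normalization, which can (0.33, adjusted p of 0.0503 from limma). The OEP21 _at probe set lost its call with no filter (0.75, adjusted p of 0.0755) and with the replicate block (0.75, adjusted p of 0.0643), and could not be tested under the stricter filter of 67.2. With 1 array left out, the change ran from 0.32 to 0.38 for TOC75 and from 0.66 to 0.82 for the OEP21 _at probe set. It ran from -0.035 to 0.113 for the OEP21 _s_at probe set, below 0 without WT replicate 3 (-0.035) and without OX replicate 3 (-0.024). With no filter 57194 probe sets were tested, which raises adjusted p-values, and with 1 array left out fewer arrays enter the fit; for the other settings the cause was not tested. CLPC1 and CLPC2 were at 0.094 and 0.046 under quantile normalization and did not pass. In the import and envelope list, 0 genes passed with the stricter filter, which removes CLPC3, and 2 when any probe set of a gene counted, through SFR2. Over all probe sets 4578 passed, 7945 with array weights, 7250 at an adjusted p under 0.10, 3342 with the replicate block and 2230 to 5533 with 1 array left out (2408, 2287 and 2483 without WT replicates 1, 2 and 3, and 2230 without OX replicate 3). Without detection calls, how far the dim OEP21 probe set lay above background was not tested.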
